A study of Mus musculus with 16 samples.

Results

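The genes described here were the immediate early and sorting stress genes of sorted mouse bone endothelial cells (ECs), a module of 36 genes. They were chosen by symbol, but with earlier results of these data known. All 36 were found among the 38926 rows of the table of bone regions, the 38926 rows of the Lats2 table and the 21603 Ensembl identifiers of the Yap1/Taz files. RNA-seq of total RNA from C57BL/6 bone ECs sorted by fluorescence-activated cell sorting (FACS) gave 16 libraries. Wild-type ECs from the metaphysis, the zone under the growth plate (mpECs, n = 3), were compared with ECs from the diaphyseal marrow (bmECs, n = 3), and the study's methods give 3-week-old reporter mice as their source. At postnatal day 21, animals with loxP-flanked Yap1 and Wwtr1 (Taz) alleles that were positive for Cdh5CreERT2 (labelled ECKO, n = 3) were compared with Cre-negative animals of the same floxed genotype (n = 3). Animals with loxP-flanked Lats2 alleles were likewise Cre-positive (Lats2 cKO, n = 2) or Cre-negative (n = 2). For these animals too, the study's methods give an age of 3 weeks. In both models the Cre is tamoxifen-inducible and driven by the endothelial Cdh5 promoter, and the controls carry the floxed alleles too. The labels do not tie libraries to animals, and the study's methods call them biological replicates.

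Immediate early genes are transcribed within minutes of a stimulus, before any new protein is made. Growth factors, flow, stress and also enzymatic digestion and sorting of a tissue are known to switch them on through the MAP kinases, serum response factor (SRF) and CREB. Many encode short-lived transcription factors (FOS, JUN, EGR, NR4A) and others encode proteins that end the response, such as the phosphatase DUSP1, the cytokine signal inhibitor SOCS3 and the mRNA decay factor ZFP36 (tristetraprolin).

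The promoters of 6 members are shown because the results below turn on these genes: Fos, Dusp1 and Zfp36 split the bmEC libraries, and Junb, Socs3 and Gadd45g were higher in all of them. Each runs from 250 bases before to 50 bases after the RefSeq start site (build GRCm38.p6), 5′ to 3′ on the strand of the gene. Capitals mark the motifs searched for on both strands: the CArG box bound by SRF, the CRE TGACGTCA, the AP-1 site TGANTCA, the STAT site TTCNNNGAA and the TATA box TATAAA. The windows are Fos chr12:85473640-85473939 (plus strand), Dusp1 chr17:26508423-26508722 (minus), Zfp36 chr7:28379179-28379478 (minus), Junb chr8:84978699-84978998 (minus), Socs3 chr11:117969317-117969616 (minus) and Gadd45g chr13:51846425-51846724 (plus).
Fos: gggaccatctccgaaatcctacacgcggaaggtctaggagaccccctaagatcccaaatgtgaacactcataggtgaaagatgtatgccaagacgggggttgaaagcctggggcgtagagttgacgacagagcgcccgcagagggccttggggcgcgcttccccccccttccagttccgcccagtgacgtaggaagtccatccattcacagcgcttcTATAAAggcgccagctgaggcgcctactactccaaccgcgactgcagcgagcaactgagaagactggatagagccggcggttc
Dusp1: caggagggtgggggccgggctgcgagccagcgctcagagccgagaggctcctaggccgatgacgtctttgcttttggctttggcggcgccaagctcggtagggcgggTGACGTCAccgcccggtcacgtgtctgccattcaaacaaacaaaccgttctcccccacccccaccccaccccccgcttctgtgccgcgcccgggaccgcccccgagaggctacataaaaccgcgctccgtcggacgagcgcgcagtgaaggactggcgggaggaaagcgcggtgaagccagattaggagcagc
Zfp36: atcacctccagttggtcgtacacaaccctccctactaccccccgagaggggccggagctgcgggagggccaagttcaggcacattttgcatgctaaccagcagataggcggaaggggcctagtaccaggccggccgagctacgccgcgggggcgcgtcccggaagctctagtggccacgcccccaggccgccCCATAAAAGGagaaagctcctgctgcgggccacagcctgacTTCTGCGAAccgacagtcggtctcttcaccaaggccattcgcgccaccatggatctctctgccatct
Junb: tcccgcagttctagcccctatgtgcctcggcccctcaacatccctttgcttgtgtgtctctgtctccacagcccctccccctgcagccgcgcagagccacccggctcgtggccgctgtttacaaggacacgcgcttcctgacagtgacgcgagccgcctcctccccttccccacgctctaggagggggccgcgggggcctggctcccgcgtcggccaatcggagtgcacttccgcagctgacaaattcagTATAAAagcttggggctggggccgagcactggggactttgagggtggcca
Socs3: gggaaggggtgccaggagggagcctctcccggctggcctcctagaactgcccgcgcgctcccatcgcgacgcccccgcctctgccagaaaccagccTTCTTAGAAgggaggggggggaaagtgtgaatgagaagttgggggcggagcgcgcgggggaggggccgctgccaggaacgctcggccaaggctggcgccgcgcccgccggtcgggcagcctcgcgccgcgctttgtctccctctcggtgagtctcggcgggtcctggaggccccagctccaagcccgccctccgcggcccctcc
Gadd45g: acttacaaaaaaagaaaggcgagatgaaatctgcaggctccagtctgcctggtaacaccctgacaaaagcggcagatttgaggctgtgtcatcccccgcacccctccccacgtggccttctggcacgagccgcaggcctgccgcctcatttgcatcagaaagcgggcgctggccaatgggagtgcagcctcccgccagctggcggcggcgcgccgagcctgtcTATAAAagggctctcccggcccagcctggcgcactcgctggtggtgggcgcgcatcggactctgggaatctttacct

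Among these 6 windows the CArG box stood in Zfp36 and the CRE in Dusp1, a STAT site in Zfp36 and Socs3, and a TATA box in Fos, Junb and Gadd45g, with no overlap between motifs. The TATA box letters began at position −33 in Fos and −27 in Gadd45g, but at position 1 in Junb, the RefSeq start site itself. RefSeq promoters were found for 29 of the 36 members (38 windows, since some genes have several start sites). A CArG box was in 13.2% of the member windows and in 1.63% of all 32851 windows, but 5 windows held it in only 2 genes, Egr2 and Zfp36, and several of the Egr2 windows overlap. For the CRE the shares were 10.5% (Btg2, Dusp1, Maff and Ppp1r15a) and 1.79%, for the STAT site 10.5% and 8.3%, for the AP-1 site 5.26% and 7.81%, and for the TATA box 23.7% and 13.6%. A match is a description of these letters only. Sites outside the windows or with other letters were not searched for, and Fosl1, Egr1, Egr3, Ier2, Zfp36l2, Cebpd and Myc had no window. The members are also compact genes: their longest transcripts had a median of 2 exons against 8 over the 11310 genes tested with an annotation in the Yap1/Taz files, and a median GC content of 55.2% against 49.7%.

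Levels are in FPKM, fragments scaled to gene length and sequencing depth, as deposited. Differences are bmEC minus mpEC, or mutant label minus control, in log2(FPKM + 1), which understates changes of low genes. They were tested with limma over every gene whose mean in the comparison reached 1 FPKM, and a gene was called at a Benjamini-Hochberg adjusted p under 0.05 over all genes tested. The 3 tables were normalised separately, so levels are set side by side across them but never tested. Reads recovered from the FPKM steps came to 11113400 to 14744000 per library for the regions and 4729159 to 7166547 for the other libraries.

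Of the targeted genes, Wwtr1 went against its label. Its level was 10.01, 9.88 and 10.3 FPKM in the controls and 15.3, 19.6 and 19.5 FPKM in the libraries labelled ECKO (difference 0.78 ± 0.12 SE, limma adjusted p = 0.0272). Yap1 was at 1.07, 1.62 and 0.995 FPKM in the controls and 1.43, 1.03 and 0.989 FPKM in the libraries labelled ECKO, and the groups overlapped. Lats2 was at 23.4 and 24.0 FPKM in the Lats2 controls and 19.2 and 19.2 FPKM in the Lats2 cKO libraries (−0.29 ± 0.11, limma adjusted p = 0.125). A gene-level FPKM also counts exons outside the deleted part and cannot show the deletion itself. All 10 endothelial markers (among them Pecam1, Cdh5 and Kdr) were above 0 in every library, but haemoglobin and other erythroid markers summed to 28251 to 60395 FPKM in the region libraries, against 1785 to 2382 FPKM for the endothelial list. In bulk libraries of this kind, fewer cells of a type and less RNA per cell cannot be told apart.

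The summed level of the 36 members already separated libraries within a group. It was 1525, 1514 and 1991 FPKM in mpEC 1 to 3 and 4180.4, 4721 and 1838 FPKM in bmEC 1 to 3, so that bmEC 3 lay within the range of the mpECs. In the Yap1/Taz files it was 3856, 4129 and 3821 FPKM in the controls and 4108, 5103 and 5403 FPKM in the libraries labelled ECKO, where library 1 lay within the control range. The Lats2 controls stood at 1692 and 1943 FPKM and the Lats2 cKO libraries at 1839 and 1761 FPKM, both between the controls. As a share of the total FPKM of each library, however, the sum was 0.494% and 0.570% in the controls and 0.481% and 0.396% in Lats2 cKO, both below the controls.

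**Figure D1:**
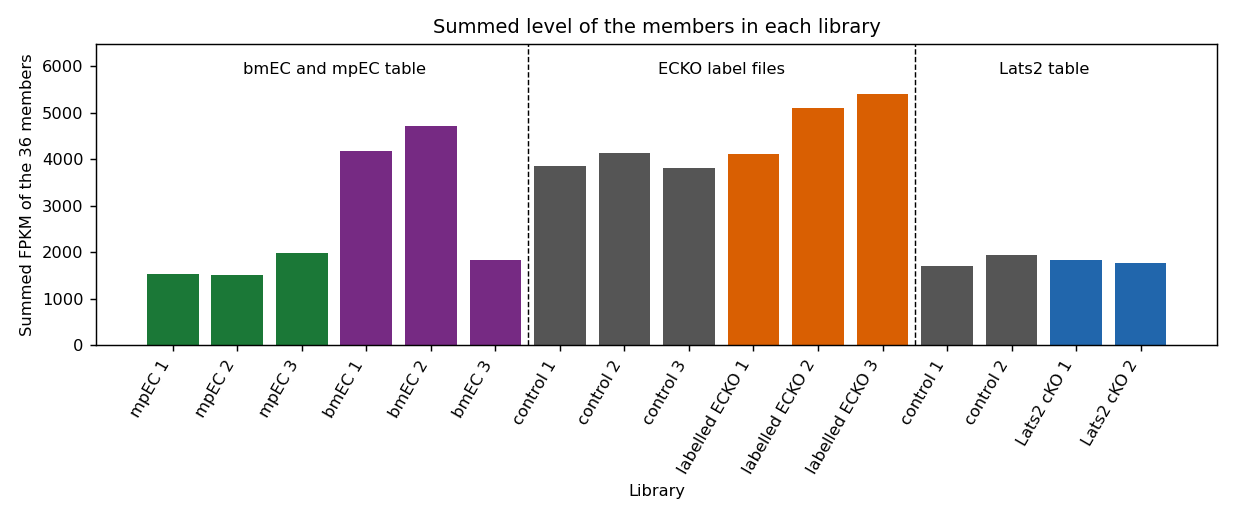
Summed FPKM of the 36 members (vertical axis, from 0) in each of the 16 libraries, as bars coloured by group, with dashed lines between the separately normalised tables. Library bmEC 3 stands at 1838 against 4180.4 and 4721 for bmEC 1 and 2.

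The comparison of bmECs with mpECs asks how ECs differ between the marrow and the metaphysis. Of 34 members tested (Egr3 and Nr4a3 were below the filter), 6 were called higher in bmECs, 17.6% against 13.0% of the 11422 genes tested, and 2 lower, 5.88% against 10.5%. Their median difference was 0.28, and that over all genes was −0.00068. With limma-voom on recovered reads the same comparison called 893 genes higher and 2401 lower, against 1481 and 1201 here, and moved the median of all genes to −0.19 and that of the members to 0.093. Groups without any overlap were as common as elsewhere or less: 7 members with every bmEC above every mpEC (20.6%, 22.1% of all genes) and 4 with every bmEC below (11.8%, 19.2% of all genes).

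Gadd45g, a stress sensor that binds p38 pathway kinases and cell-cycle proteins, had the lowest adjusted p of the members. Its level was 121, 112 and 120.1 FPKM in the mpECs and 499.9, 431 and 323 FPKM in the bmECs, so all bmECs were far above all mpECs. The difference was 1.80 ± 0.15 (SE, limma adjusted p = 0.000154). Gadd45a and Gadd45b, its relatives, overlapped between the groups, with Gadd45a at 3.79 to 7.16 FPKM and Gadd45b at 7.61, 4.28 and 6.18 FPKM in mpECs and 5.09, 3.59 and 4.76 FPKM in bmECs.

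Among AP-1 members, Junb was 34.9, 43.2 and 56.3 FPKM in mpECs and 109, 103 and 78.1 FPKM in bmECs (1.11 ± 0.19, limma adjusted p = 0.00440), without overlap. Jun was 85.1, 114 and 179 FPKM in mpECs and 411, 405 and 161 FPKM in bmECs (1.31 ± 0.39, limma adjusted p = 0.0463). For Jun bmEC 3 lay inside the mpEC range, and the call was lost without bmEC 1 (limma adjusted p = 0.133), bmEC 2 (0.137), mpEC 1 (0.124) or mpEC 2 (0.106). It was also lost with quantile normalization (limma adjusted p = 0.0598), no trend (0.0598) or no filter (0.121). Fosl1, which encodes the FOS relative FRA-1, went the other way at a low level, from 3.03, 2.47 and 3.20 FPKM to 1.07, 0.867 and 0.896 FPKM (−1.001 ± 0.13, limma adjusted p = 0.00140). An annotated gene on the opposite strand covers 57.2% of its exon bases, and whether reads were counted by strand is not given in the sources used here.

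Cebpd, a bZIP factor of acute-phase responses, rose from 8.57, 11.1 and 8.73 FPKM to 18.8, 33.8 and 25.3 FPKM (1.34 ± 0.20, limma adjusted p = 0.00246). Ier3, a survival-related early response gene, rose from 18.3, 9.93 and 18.8 FPKM to 49.7, 42.3 and 26.8 FPKM (1.29 ± 0.28, limma adjusted p = 0.0135). Socs3 rose from 3.14, 4.75 and 7.69 FPKM to 19.0, 19.9 and 8.73 FPKM (1.43 ± 0.35, limma adjusted p = 0.0207). None of the 3 overlapped between the groups, although for Socs3 bmEC 3 lay just above mpEC 3, and its call was lost without bmEC 1 or 2 or without mpEC 1 or 2 (limma adjusted p = 0.0558 to 0.0700). Rhob, a short-lived small GTPase of endosomes and stress fibres, fell from 39.9, 47.9 and 49.8 FPKM to 27.7, 29.4 and 17.1 FPKM (−0.90 ± 0.20, limma adjusted p = 0.0135), again without overlap. Without mpEC 3 its limma adjusted p was 0.0520.

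**Figure D2:**
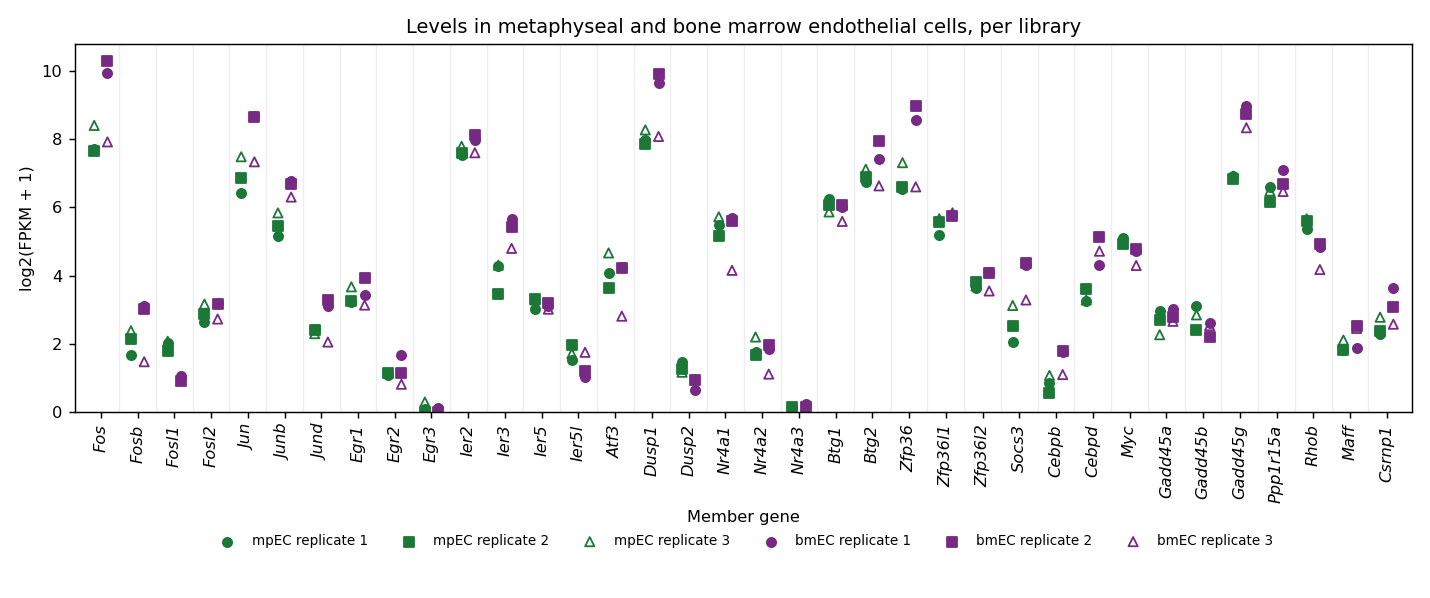
Level of each member as log2(FPKM + 1) in the 3 mpEC libraries (green) and the 3 bmEC libraries (purple), with replicate 1 as circles, 2 as squares and 3 as open triangles. For Fos, Dusp1 and Zfp36 the open purple triangle (bmEC 3) sits among the green points and the other 2 bmECs well above them.

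Fos, Dusp1 and Zfp36, 3 of the most abundant members, were not called. Fos was 208, 202 and 339 FPKM in the mpECs and 995, 1249 and 242 FPKM in the bmECs (1.46 ± 0.56, limma adjusted p = 0.0989). The level of Dusp1 was 253, 230.5 and 309.7 FPKM in mpECs and 807, 973 and 271 FPKM in bmECs (1.18 ± 0.43, limma adjusted p = 0.0835). For Zfp36 it was 91.7, 95.1 and 158 FPKM and then 379, 501 and 96.3 FPKM (1.24 ± 0.56, limma adjusted p = 0.152). In all of them bmEC 1 and 2 were above every mpEC and bmEC 3 was inside the mpEC range. These were well-covered genes: the bmEC libraries held 6702 to 27772 recovered reads for Fos and 3931 to 16428 for Zfp36.

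The same split ran through other roles. In 11 of the 34 members both bmEC 1 and bmEC 2 exceeded 2 times bmEC 3, against 0.919% of all genes tested: Fos, Fosb, Jun, Jund, Atf3, Dusp1, Nr4a1, Nr4a2, Zfp36, Socs3 and Cebpb. No member stood over 2 times above or below both other libraries of its group in any other region library. Library bmEC 3 was the lowest bmEC for 27 of the 34 members, and for 39.3% of all genes. The nuclear receptor Nr4a1 was 43.6, 34.8 and 51.9 FPKM in mpECs and 50.2, 47.2 and 16.8 FPKM in bmECs, and the stress-induced repressor Atf3 was 15.7, 11.5 and 24.3 FPKM and then 18.1, 17.5 and 6.00 FPKM. In these 2 genes bmEC 3 lay below every mpEC and the other bmECs did not exceed the mpEC range. The antiproliferative gene Btg2, at 106, 117 and 138 FPKM in mpECs and 171, 249 and 98.3 FPKM in bmECs, showed the split less strongly. Ier2, an early response gene of the nucleus, varied less, at 186, 195 and 221 FPKM in mpECs and 250.1, 278 and 194 FPKM in bmECs. Gadd45g, Cebpd and Junb kept bmEC 3 above the mpECs.

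Without bmEC 3, 16 members were called higher, against 11.9% of all genes, and the same 2 lower, against 8.80%. Fos then differed by 2.20 ± 0.24 (limma adjusted p = 0.00184), Zfp36 by 1.96 ± 0.25 (limma adjusted p = 0.00349) and Dusp1 by 1.75 ± 0.15 (limma adjusted p = 0.000842). Fosb, Jund, Ier2, Btg2, Zfp36l2, Cebpb and Csrnp1 were the further calls. Library bmEC 3 was singled out by the low values of these same members, so these calls restate the split and are no separate evidence. Leaving out any other region library gave 4 to 6 members higher (11.8% to 17.6%), against 8.94% to 11.3% of all genes. The endothelial marker sum was 2382, 2279 and 2283 FPKM in bmEC 1 to 3, and the neutrophil sum 14261, 9829 and 10196 FPKM. The erythroid sum was 60395, 55991 and 42478 FPKM, lowest in bmEC 3, and its part in the split was not tested. Its recovered reads, 14744000, were the highest of the bmECs. Among the mpECs, library 3 was the highest for 22 of the 34 members and for 30.3% of all genes. Osteoblast markers moved with the comparison, from 247 to 975 FPKM in mpECs to 45.2 to 60.7 FPKM in bmECs, with 5 of 7 tested called lower, and their part in the members' differences was not tested.

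The remaining members gave smaller differences between the regions. The zinc finger factor genes Egr1, at 7.77 to 14.3 FPKM, and Egr2, at 0.750 to 2.15 FPKM, overlapped, and Egr3 stayed at or below 0.218 FPKM in every region library. Cebpb (0.72 ± 0.23, limma adjusted p = 0.0566), Myc (−0.42 ± 0.14, limma adjusted p = 0.0643) and Dusp2 (−0.46 ± 0.16, limma adjusted p = 0.0716) separated the groups without passing the test. Zfp36l1 did so too, at 35.7, 47.0 and 49.9 FPKM in mpECs and 54.4, 52.5 and 56.3 FPKM in bmECs. Ppp1r15a (GADD34), which directs a phosphatase to the translation factor eIF2 alpha, was 95.3, 70.1 and 88.5 FPKM in mpECs and 137, 102 and 87.6 FPKM in bmECs, with bmEC 3 inside the mpEC range. Among members called in the other comparisons, Fosl2 was 5.18, 6.25 and 7.95 FPKM in mpECs and 8.20, 7.98 and 5.60 FPKM in bmECs, Ier5 was 7.03, 8.86 and 8.72 FPKM and then 7.62, 8.15 and 7.07 FPKM, and Zfp36l2 was 11.4, 12.9 and 11.96 FPKM and then 16.2, 15.8 and 10.7 FPKM. In Fosl2 and Zfp36l2 bmEC 1 and 2 were above every mpEC and bmEC 3 was not. Myc was 33.6, 29.2 and 31.7 FPKM in mpECs and 25.5, 26.7 and 18.6 FPKM in bmECs, and Cebpb was 0.807, 0.466 and 1.10 FPKM and then 2.34, 2.46 and 1.13 FPKM. Btg1 overlapped, at 57.4 to 74.3 FPKM in mpECs and 47.2 to 66.1 FPKM in bmECs.

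**Figure D3:**
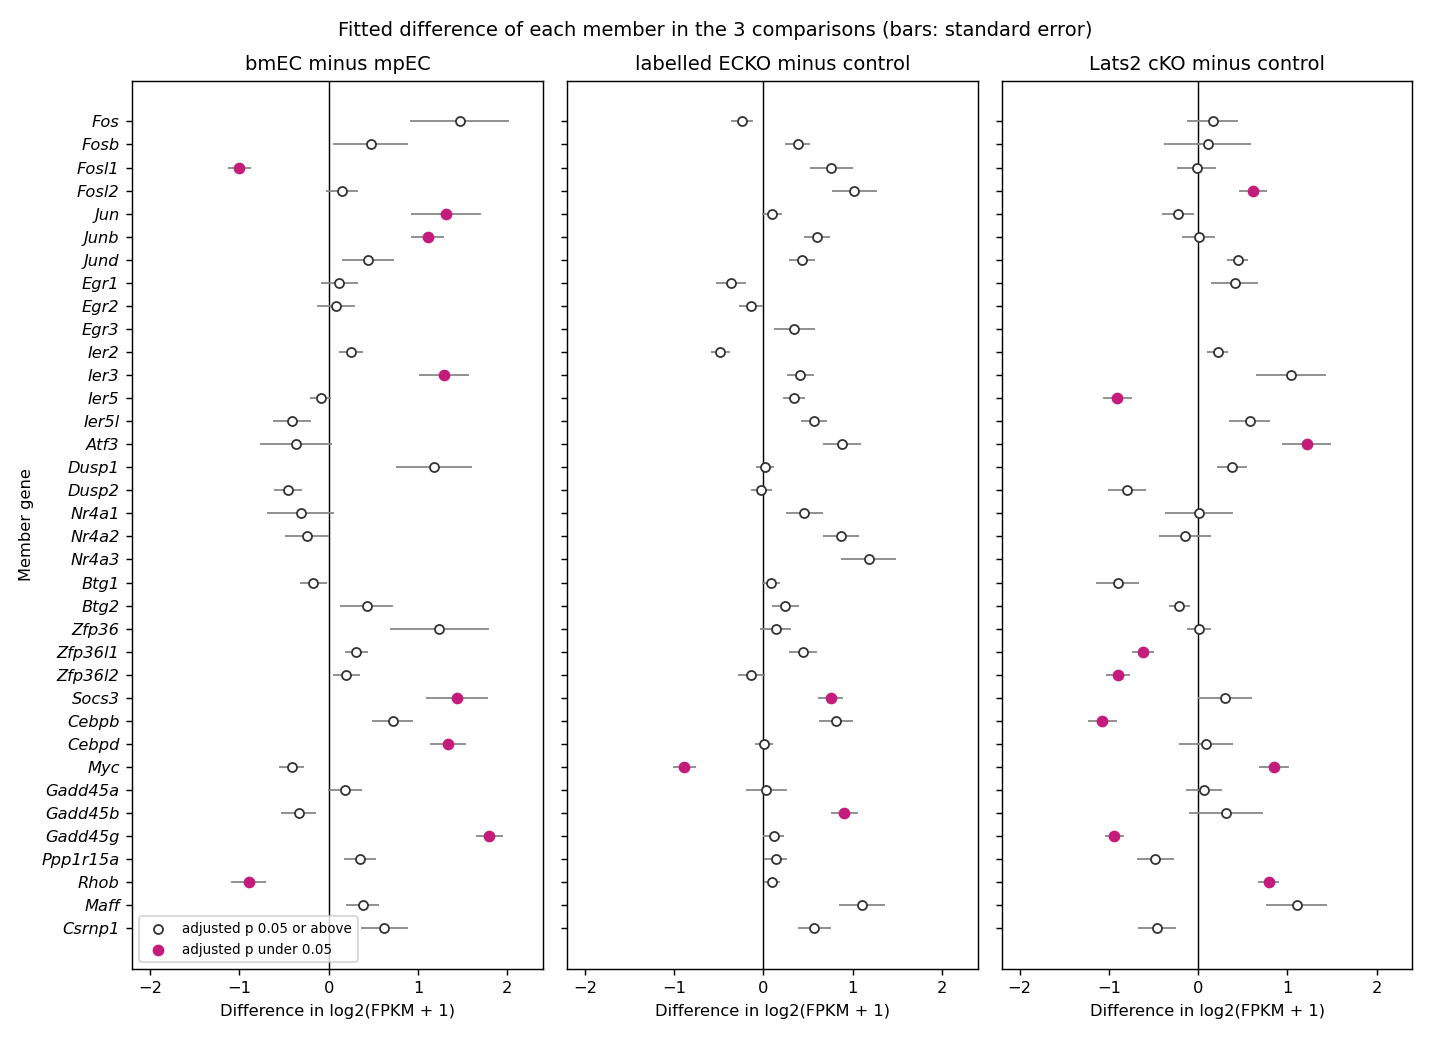
Fitted difference of each member in log2(FPKM + 1) with its standard error as a bar, for bmEC minus mpEC, libraries labelled ECKO minus control and Lats2 cKO minus control, with filled points at an adjusted p under 0.05. Members below the filter have no point, and Gadd45g lies at 1.80 in the regions and at −0.94 in Lats2 cKO.

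In the libraries labelled ECKO, 2 of 36 members were called higher, 5.56% against 0.883% of the 11320 genes tested, and 1 was called lower, 2.78% against 0.424%. Their median difference was 0.34 against −0.0047 over all genes. With limma-voom on recovered reads 206 genes were called higher and 152 lower, against 100 and 48 here, and 9 members higher and 2 lower. More members separated the groups than passed the test: in 12 every library labelled ECKO was above every control (33.3%, 12.3% of all genes), and in 3 below (8.33%, 11.3% of all genes).

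Gadd45b, which links stress to p38 and JNK signalling, was 47.8, 51.3 and 48.2 FPKM in the controls and 70.2, 110.0 and 103 FPKM in the libraries labelled ECKO (0.90 ± 0.15, limma adjusted p = 0.0372). Socs3 was 42.1, 38.8 and 39.0 FPKM in the controls and 53.6, 74.8 and 78.3 FPKM in the libraries labelled ECKO (0.75 ± 0.14, limma adjusted p = 0.0406). Myc, the growth regulator, was lower: 40.3, 48.0 and 41.0 FPKM in the controls and 27.0, 19.5 and 22.3 FPKM in the libraries labelled ECKO (−0.89 ± 0.13, limma adjusted p = 0.0235). For each of these the groups did not overlap, and library 1 labelled ECKO lay nearest to the controls. All 3 calls were lost without control 2, without control 3, and without library 2 or library 3 labelled ECKO, and only that of Myc was kept without control 1.

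Several regulators that separated the groups missed the threshold. Fosl2, the FRA-2 subunit of AP-1, was 58.1, 76.1 and 39.8 FPKM in the controls and 81.2, 126 and 147 FPKM in the libraries labelled ECKO (1.02 ± 0.25, limma adjusted p = 0.0753). Atf3 was 54.8, 51.6 and 36.2 FPKM and then 60.9, 106 and 102 FPKM (0.88 ± 0.22, limma adjusted p = 0.0761). Junb, among the most abundant members in these files, was 759, 742 and 656 FPKM and then 879, 1213 and 1207 FPKM (0.60 ± 0.15, limma adjusted p = 0.0775). Each of them had library 1 labelled ECKO between the controls and the other 2.

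The inflammatory bZIP factor Cebpb, at 54.9, 63.5 and 42.9 FPKM in controls and 70.6, 106 and 111 FPKM in libraries labelled ECKO, gave 0.81 ± 0.19 (limma adjusted p = 0.0654). The small MAF factor Maff gave 1.11 ± 0.26 (limma adjusted p = 0.0654), the orphan nuclear receptors Nr4a2 and Nr4a3 0.87 ± 0.20 and 1.18 ± 0.31 (limma adjusted p = 0.0660 and 0.0868), and Ier5l 0.57 ± 0.15 (limma adjusted p = 0.0909). In all of these, too, every library labelled ECKO was above every control. The transcription factor gene Csrnp1 (0.57 ± 0.18, limma adjusted p = 0.145) and Ier3 (0.41 ± 0.15, limma adjusted p = 0.197) overlapped, and passed the threshold under array quality weights alone among the settings that kept all libraries.

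Other members gave lower values under the ECKO label or values near the controls. Ier2 was 81.5, 87.3 and 99.0 FPKM in the controls and 58.1, 64.8 and 67.3 FPKM in the libraries labelled ECKO (−0.49 ± 0.11, limma adjusted p = 0.0633). Fos was 623, 598 and 768 FPKM and then 548, 564 and 562 FPKM (−0.24 ± 0.12, limma adjusted p = 0.335), also without overlap. Jun was 71.6, 90.7 and 86.4 FPKM and then 83.1, 86.9 and 95.04 FPKM, and Dusp1 was 139, 144 and 157 FPKM and then 158, 139 and 149 FPKM. Zfp36 was 157, 249.7 and 246 FPKM and then 228, 211 and 266 FPKM, and Rhob was 119.6, 116 and 118 FPKM and then 119, 129 and 131 FPKM. Jun, Dusp1, Zfp36 and Rhob overlapped between the groups. Gadd45g, at 20.3, 21.3 and 16.9 FPKM and then 19.4, 20.7 and 23.4 FPKM, Ppp1r15a, at 60.5 to 84.1 FPKM, and Egr1, at 9.57 to 16.8 FPKM, overlapped as well. Nr4a1 was 386, 499.9 and 317 FPKM in the controls and 403, 571 and 691 FPKM in the libraries labelled ECKO, with overlap, and Btg2 was 211, 195 and 179.9 FPKM and then 181, 260.1 and 262 FPKM.

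Some members called in the other comparisons were not called under the ECKO label. Cebpd was 30.4, 27.2 and 28.5 FPKM in the controls and 30.7, 29.4 and 26.4 FPKM in the libraries labelled ECKO, and Ier5 was 65.0, 68.9 and 57.2 FPKM and then 68.2, 86.7 and 88.6 FPKM. Ier3 was 151, 109.7 and 110.0 FPKM in the controls and 135, 179 and 179 FPKM in the libraries labelled ECKO. The decay factor genes differed from each other: Zfp36l1, at 26.5, 39.8 and 38.0 FPKM and then 40.6, 49.7 and 51.6 FPKM, separated the groups without a call, while Zfp36l2, at 73.1, 114 and 102 FPKM and then 89.8, 79.8 and 88.8 FPKM, overlapped. Fosl1 was low and uneven in the controls, at 0.247, 1.45 and 0.473 FPKM, and stood at 1.63, 1.80 and 1.96 FPKM in the libraries labelled ECKO, also without a call.

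**Figure D4:**
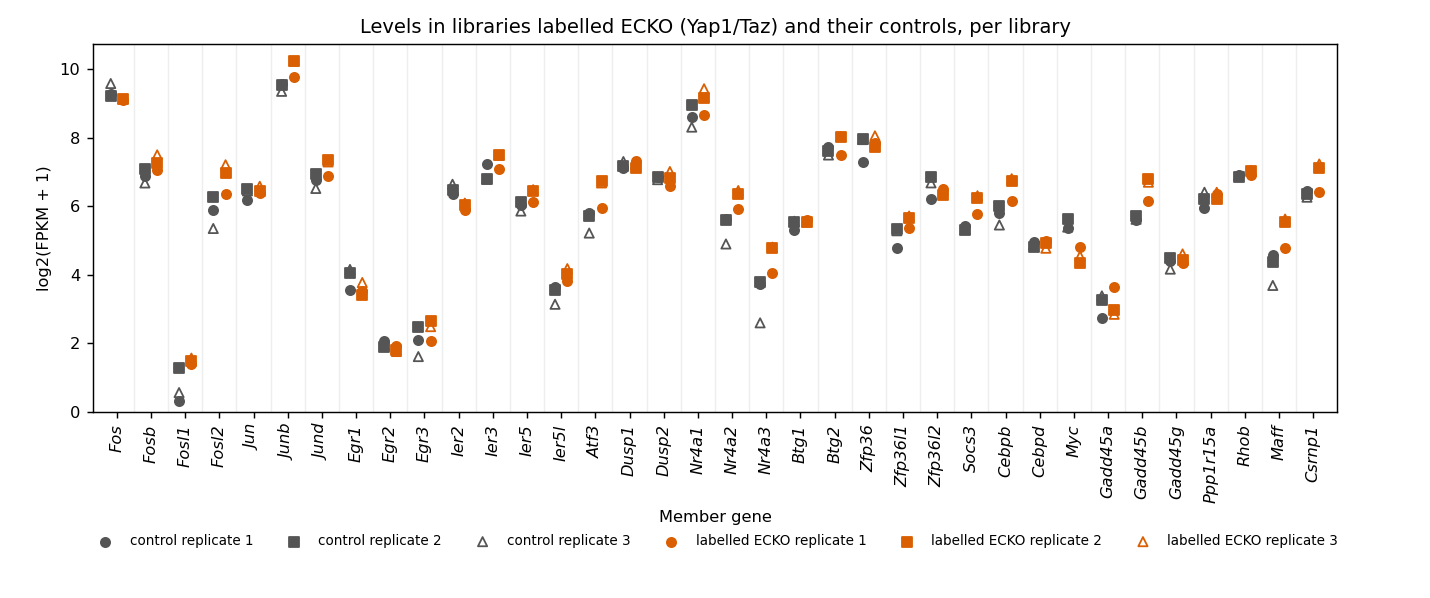
Level of each member as log2(FPKM + 1) in the 3 controls (grey) and the 3 libraries labelled ECKO (orange), with replicate 1 as circles, 2 as squares and 3 as open triangles. The orange circle (library 1 labelled ECKO) is nearest to the grey points for Gadd45b, Socs3 and Atf3.

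Library 1 labelled ECKO was the lowest of its group for 26 of 36 members, and for 40.7% of all genes. Without it, 9 members were called higher, against 1.90% of all genes, and Myc lower, against 0.690%. The 9 were Gadd45b (1.10 ± 0.09, limma adjusted p = 0.00186), Socs3, Csrnp1, Junb, Atf3, Cebpb, Maff, Fosl2 and Nr4a2. Library 1 labelled ECKO was singled out by the values of these same members, so these calls are no separate evidence. That library also held the highest sum of neutrophil markers, 4053 FPKM against 1818 and 1716 FPKM in libraries 2 and 3 labelled ECKO and 2168 to 2823 FPKM in the controls. The endothelial marker sum was 637 to 679 FPKM in the controls and 823, 933 and 947 FPKM in the libraries labelled ECKO, with 1 of 10 markers called. Osteoblast markers summed to 37.9 to 57.8 FPKM in the controls and 26.6, 9.14 and 10.3 FPKM in the libraries labelled ECKO, with 3 of 6 called lower. B cell markers summed to 259 to 310 FPKM in the controls and 217 to 222 FPKM in the libraries labelled ECKO. The part of these markers in the members' differences was not tested.

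In the Lats2 cKO libraries, 4 of 33 members were called higher, 12.1% against 11.8% of the 12453 genes tested, and 5 lower, 15.2% against 9.98% (Egr2, Egr3 and Nr4a3 were below the filter). Their median difference was 0.065 against −0.0033 over all genes, and it turned to −0.062 after quantile normalization, −0.041 with limma-voom on recovered reads and −0.16 without control 1. The members separated the groups about as often as other genes did, with 10 higher (30.3%, 34.0% of all genes) and 10 lower (30.3%, 34.2% of all genes). By limma, 0 genes of the table were called without control 1 and 0 without control 2, where the lone control was assumed to vary like the Lats2 cKO libraries. At an unadjusted p under 0.05, 3 members (9.09%, 12.2% of all genes) were then higher and 7 (21.2%, 9.62% of all genes) lower without control 1, and 11 (33.3%, 12.8% of all genes) higher and 6 (18.2%, 10.2% of all genes) lower without control 2. With limma-voom on recovered reads, 1272 genes were called higher and 2036 lower, against 1468 and 1243 here.

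Rhob was 71.7 and 66.1 FPKM in the controls and 115 and 125 FPKM in Lats2 cKO (0.79 ± 0.12, limma adjusted p = 0.0155). Myc was 15.3 and 14.4 FPKM in the controls and 24.0 and 31.6 FPKM in Lats2 cKO (0.85 ± 0.17, limma adjusted p = 0.0257). Atf3 was 4.15 and 7.96 FPKM and then 14.7 and 14.9 FPKM (1.22 ± 0.28, limma adjusted p = 0.0358). Fosl2 was 4.74 and 5.57 FPKM and then 7.83 and 8.99 FPKM (0.61 ± 0.16, limma adjusted p = 0.0478). All 4 were higher in both Lats2 cKO libraries than in both controls, and the calls of Atf3 and Fosl2 were lost without any one of the 4 libraries. Without Lats2 cKO 2 the limma adjusted p was 0.0516 for Rhob and 0.0635 for Myc.

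The 5 lower calls were Gadd45g, Cebpb, Ier5, Zfp36l1 and Zfp36l2. Gadd45g was 90.0 and 88.0 FPKM in the controls and 44.9 and 47.1 FPKM in Lats2 cKO (−0.94 ± 0.11, limma adjusted p = 0.0105). Cebpb was 79.5 and 86.4 FPKM and then 44.4 and 33.9 FPKM (−1.08 ± 0.16, limma adjusted p = 0.0155). Ier5, a nuclear cofactor of the heat shock response, was 61.2 and 63.3 FPKM and then 37.6 and 28.6 FPKM (−0.90 ± 0.16, limma adjusted p = 0.0210). Zfp36l1 and Zfp36l2, which like ZFP36 bind AU-rich mRNA, were the other called genes, and annotated genes on the opposite strand cover 55.9% of the exon bases of Zfp36l1 and 20.7% of those of Cebpb. Zfp36l2 was 60.4 and 61.3 FPKM in the controls and 35.2 and 29.4 FPKM in Lats2 cKO (−0.90 ± 0.13, limma adjusted p = 0.0150), and Zfp36l1 was 77.5 and 80.7 FPKM and then 54.2 and 48.5 FPKM (−0.62 ± 0.12, limma adjusted p = 0.0253). Their relative Zfp36 did not follow, at 47.2 and 48.7 FPKM in the controls and 53.2 and 43.7 FPKM in Lats2 cKO. The antiproliferative gene Btg1 (−0.90 ± 0.24, limma adjusted p = 0.0523) and the phosphatase gene Dusp2 (−0.80 ± 0.21, limma adjusted p = 0.0541) lay just outside the threshold.

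Fos, Jun, Junb and Nr4a1 overlapped between the Lats2 groups. Fos was 112 and 141 FPKM in the controls and 186 and 106 FPKM in Lats2 cKO, Jun 161 and 187 FPKM and then 172 and 128 FPKM, and Junb 158 and 222 FPKM and then 185 and 190.5 FPKM. Nr4a1 was 23.6 and 48.5 FPKM and then 42.4 and 27.4 FPKM, while Dusp1 was higher in both Lats2 cKO libraries, at 103 and 133 FPKM and then 164 and 143 FPKM, and was not called (limma adjusted p = 0.159). Jund (0.44 ± 0.12), Ier3 (1.04 ± 0.39), Ier5l (0.58 ± 0.23) and Maff (1.10 ± 0.34) also separated the groups on the high side, Ier3 with 19.9 and 34.0 FPKM in the controls and 38.9 and 77.1 FPKM in Lats2 cKO, with limma adjusted p = 0.0510, 0.116, 0.131 and 0.0723. Ier2 was 125 and 140.2 FPKM in the controls and 155 and 153 FPKM in Lats2 cKO, and Btg2 was 85.0 and 88.8 FPKM and then 79.2 and 71.1 FPKM, both without overlap and without a call. Egr3 was listed at 0 in all 4 libraries. Fosl1 (2.24 and 2.95 FPKM, then 2.17 and 2.94 FPKM) overlapped. Socs3 (21.3 and 38.8 FPKM, then 31.3 and 40.5 FPKM), Cebpd (97.3 and 63.5 FPKM, then 65.3 and 107 FPKM) and Gadd45b (4.76 and 11.95 FPKM, then 7.95 and 11.9 FPKM) overlapped, with controls that differed from each other by more than the groups did. Control 1 was the lower control for 27 of 33 members, and for 50.2% of all genes.

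**Figure D5:**
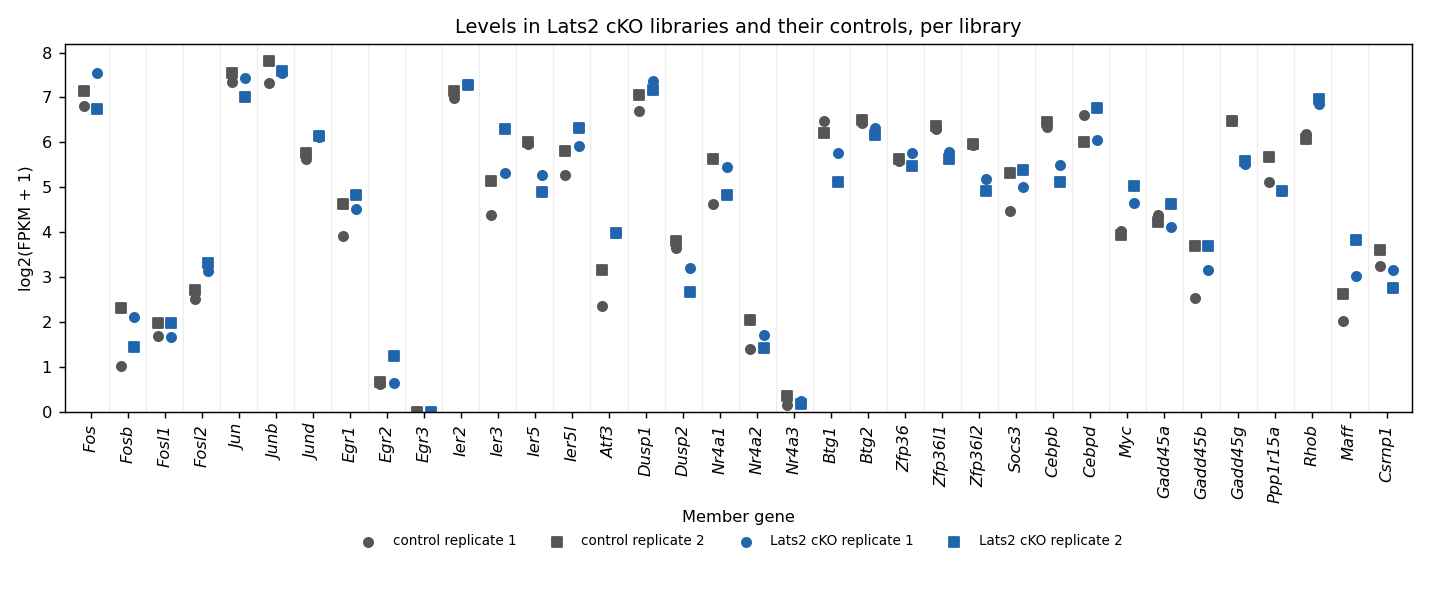
Level of each member as log2(FPKM + 1) in the 2 Lats2 controls (grey) and the 2 Lats2 cKO libraries (blue), with replicate 1 as circles and 2 as squares. Gadd45g, Cebpb, Ier5 and Zfp36l2 have both blue points below both grey points, and Rhob, Myc and Atf3 have them above.

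Markers of blood cells moved with the Lats2 comparison. Erythroid markers summed to 3670 and 2436 FPKM in the controls and 1395 and 243 FPKM in Lats2 cKO, with 1 of 7 called lower. Neutrophil markers summed to 3051 and 2083 FPKM in the controls and 933 and 739 FPKM in Lats2 cKO, with 7 of 10 called lower. B cell markers summed to 102 and 89.1 FPKM and then 33.1 and 27.5 FPKM, and monocyte and macrophage markers to 671 and 558 FPKM and then 329 and 83.3 FPKM. Stromal and pericyte markers were higher, 46.5 and 61.1 FPKM and then 108 and 108 FPKM, with 4 of 6 called, and endothelial markers summed to 3157 and 3435 FPKM and then 3098 and 2911 FPKM. No neutrophil marker was at 0 in the controls and 2 of 10 were in Lats2 cKO 2, and the part of these markers in the lower values of Cebpb, Ier5, Gadd45g and Zfp36l2 was not tested.

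Set side by side, 4 members were called in more than 1 comparison, and the comparisons share no library. Of all genes tested, 23.5% were called in bmECs, 1.31% under the ECKO label and 21.8% in Lats2 cKO. The share of all genes called in more than 1 comparison was not counted, so the 4 are a description only. Gadd45g was called higher in bmECs and lower in Lats2 cKO, and overlapped between the libraries labelled ECKO and their controls. Rhob was called lower in bmECs and higher in Lats2 cKO. Myc was called lower under the ECKO label (−0.89) and higher in Lats2 cKO (0.85), and its difference in bmECs was −0.42 ± 0.14 (limma adjusted p = 0.0643). Socs3 was called higher in bmECs and under the ECKO label, and overlapped in the Lats2 table. The difference between comparisons was not tested.

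The order of the members differed between the separately normalised tables. Fos and Dusp1 had the highest mean levels in the region libraries, and Junb, Fos and Nr4a1 in the Yap1/Taz files. Fosb was at 1.77 to 7.55 FPKM in the region libraries, 1.02 to 3.99 FPKM in the Lats2 table and 102 to 180.5 FPKM in the Yap1/Taz files. Cebpb was at 0.466 to 2.46 FPKM in the region libraries, 33.9 to 86.4 FPKM in the Lats2 table and 42.9 to 111 FPKM in the Yap1/Taz files, and Jund at 3.13 to 8.67, 48.3 to 69.8 and 90.9 to 161 FPKM. Their longest transcripts have GC contents of 67.2% (Cebpb) and 67.1% (Jund), above the member median. That of Fosb has 56.0%, near the median. Those of Nr4a3 (48.4%) and Egr3 (51.3%), members also highest in the Yap1/Taz files, lie below it. Annotated genes on the opposite strand cover 52.6% of the exon bases of Jund, 20.7% of those of Cebpb and 0.0% of those of Fosb. The part of library preparation or of such overlap in these levels was not tested. The median member stood above 66.4% of all tested genes in the region table, 88.0% in the Lats2 table and 94.8% in the Yap1/Taz files.

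Of 29 inducers of these genes (MAP kinases, SRF, ELK and CREB factors and their cofactors), 27 were tested in bmECs, where limma called 0 higher, against 13.0% of all genes, and 3 lower (11.1%, 10.5% of all genes), Mapk3 (−0.59 ± 0.11, limma adjusted p = 0.00566), Map2k6 and Mapk14, and under the ECKO label limma called 0 of 29 in either direction, against 0.883% and 0.424% of all genes. At an unadjusted p under 0.05 these counts were 3 higher (11.1%, 19.2% of all genes) and 4 lower (14.8%, 16.9%) in bmECs, and 4 higher (13.8%, 9.79%) and 1 lower (3.45%, 8.08%) under the ECKO label. There limma-voom called 0 in either direction, against 1.82% of all genes higher and 1.34% lower. In bmECs it called 0 higher (8.28% of all genes) and 6 lower (23.1%, 22.3% of all genes). In Lats2 cKO 1 of 29 was called in each direction (3.45%, against 11.8% higher and 9.98% lower of all genes). Srf was called higher, at 4.52 and 5.17 FPKM in the controls and 7.90 and 7.85 FPKM in Lats2 cKO (0.60 ± 0.14, limma adjusted p = 0.0403). Nfkb1 was called lower, at 62.5 and 53.1 FPKM and then 26.5 and 25.3 FPKM (−1.12 ± 0.13, limma adjusted p = 0.0105).

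Of 32 other early response genes, 3 of 28 tested (10.7%, 13.0% of all genes) were called higher in bmECs and 2 (7.14%, 10.5% of all genes) lower. Under the ECKO label limma called 5 of 31 higher (16.1%, 0.883% of all genes) and 0 lower (0.424% of all genes). At an unadjusted p under 0.05 these were 22 (71.0%, 9.79% of all genes) and 0 (8.08% of all genes). With limma-voom 10 were called higher (32.3%, 1.82% of all genes) and 0 lower (1.34% of all genes). By limma, 0 were called higher without control 2, control 3 or library 2 or 3 labelled ECKO (0.00% to 0.0971% of all genes). Without control 1, 2 were called higher (6.25%, 0.653% of all genes), and without library 1 labelled ECKO 10 (32.3%, 1.90% of all genes). In Lats2 cKO 8 of 31 were called higher (25.8%, 11.8% of all genes) and 4 lower (12.9%, 9.98% of all genes). The largest difference in bmECs was that of Id2, an inhibitor of bHLH factors, at 143, 165 and 149 FPKM in mpECs and 351, 368 and 350.1 FPKM in bmECs (1.22 ± 0.08, limma adjusted p = 6.87e-05), with bmEC 3 level with the others. For Bhlhe40, also called higher, bmEC 3 lay inside the mpEC range. Its level was 24.8, 25.1 and 35.3 FPKM in mpECs and 50.8, 53.7 and 34.6 FPKM in bmECs. For Hspb1, the other gene called higher, bmEC 3 was the lowest bmEC (57.5, 84.4 and 48.2 FPKM), but above every mpEC. Without bmEC 3, limma called 7 of 28 higher, against 11.9% of all genes. Leaving out any other region library gave 2 or 3 higher, against 8.94% to 11.3% of all genes. Under the ECKO label the largest difference was that of Errfi1, an EGF receptor inhibitor (0.90 ± 0.17, limma adjusted p = 0.0423), followed by Nfkbiz and Klf10. In Lats2 cKO, Cyr61 and Ctgf, well-known YAP/TAZ targets, led with 3.50 ± 0.32 (limma adjusted p = 0.00808) and 2.61 ± 0.32 (limma adjusted p = 0.0113). The heat shock genes Hspa1a and Hspa1b, near-identical copies between which reads may be split, were called lower there (−1.08 ± 0.13 and −1.04 ± 0.18, limma adjusted p = 0.0113 and 0.0195), and so was Id2 (−1.49 ± 0.17, limma adjusted p = 0.0105).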

How the data were processed

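Total RNA libraries (TruSeq Stranded Total RNA) were sequenced as paired ends. The authors mapped the reads to GRCm38 with TopHat and counted them per gene with HTSeq 0.6.1, and the deposited values are FPKM, 1 per gene and library. The step to FPKM, the annotation and the strand setting are not given in the sources used here. The Yap1/Taz files name no unit, and FPKM was taken from the study's text and the values. Ensembl identifiers were matched to symbols with the given gene table.

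Differences were fitted with limma 3.58.1 in R 4.3.3 (mean-variance trend, two-sided) on log2(FPKM + 1), separately in each table, for genes whose mean reached 1 FPKM. The fit was also run on simulated data. These gave every gene the same added spread and held no joint shift of genes in a library, so the run does not cover such shifts. Reads were recovered from the FPKM steps with GENCODE gene lengths of GRCm38, and 62.4% to 70.0% of values up to 20 reads were within 0.02 of a whole number, so read numbers are estimates and the count test is an alternative only. No 2 libraries were alike (at most 0.546% identical values). The members and lists were chosen with earlier results of these data known. By the naming rule, members were described in every library if called or among the 10 highest, and with a fold change if called in the main or an alternative fit, and of the other lists at most 3 called genes per direction. Alternatives changed the pseudocount, filter, scaling, trend, weights, block, call rule, test and libraries. P-values measure only the spread between these samples.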

Additional observations from a re-analysis of the deposited data

How the results depend on the processing

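No difference of a named member changed its sign after passing the test in any alternative, but counts of calls did change. In bmECs against mpECs (6 members higher, 2 lower), an adjusted p under 0.01 with an absolute difference over 0.5 left 3 and 1. The share of all genes passing this stricter threshold is not given here, so its counts in the 3 comparisons are a description only. With limma-voom on recovered reads 5 members were called lower (14.7%, 22.3% of all genes). Leaving out 1 library gave 4 to 16 higher and 1 to 2 lower. The 16 came without bmEC 3 and the 1 without mpEC 3. Of all genes, 15.9% to 20.7% were called without 1 library, in both directions together. Under the ECKO label (2 higher, 1 lower), no filter on low values, limma without trend and the stricter threshold each left 0 and 0. Array quality weights called 12 and 2, limma-voom 9 and 2, and a filter of 5 FPKM and quantile normalization each called 2 lower. Leaving out 1 library gave 0 to 9 higher and 0 to 1 lower, with 9 without library 1 labelled ECKO, and 0 higher without any other library. In Lats2 cKO (4 higher, 5 lower), no filter called 1 higher, limma without trend 2, array quality weights 2, and the stricter threshold 0 and 0. Leaving out 1 library gave 0 to 2 higher and 0 to 7 lower, with 0 lower without either control. The members' median there was −0.062 after quantile normalization and −0.16 to 0.25 without 1 library. Over all genes, 148 were called under the ECKO label, but 1 without a filter, 17 without trend, 693 with weights, 358 with limma-voom and 1 to 293 without 1 library. In Lats2 cKO 2711 were called, but 1389 without a filter and 0 to 2701 without 1 library. The causes were not tested.

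Libraries of the same number did not deviate together in every pair (correlations of 0.088 to 0.31 in the regions, −0.18 to −0.12 under the ECKO label, 0.065 for Lats2), so the numbers were not taken as pairs. With a replicate block, 5 members were higher and 3 lower in bmECs, where Jun lost its call (limma adjusted p = 0.0552) and Myc became one. Under the ECKO label 1 was higher (Gadd45b) and 1 lower (Myc), with Socs3 lost and 45 genes called in all. In Lats2 cKO 6 were higher and 6 lower, with Fosl2 lost and Ier3, Ier5l, Maff and Btg1 gained. Over all genes and both directions together, the block called 26.9% in bmECs and 21.3% in Lats2 cKO. With 2 or 3 libraries a group, low members such as Egr2 and Fosl1 rest on few reads, and recovered reads cover counting error only.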
